A study of Mus musculus with 7 samples.

Results

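Dbp, Tef, Hlf, Nfil3, Ciart, Bhlhe40, Bhlhe41, Rora and Usp2 are genes through which the circadian clock reaches its target genes in liver, and they are described here in the livers of 7 mice, as 9 of the 23347 genes in the count table. They were chosen by name with their measured values in these livers already known, so that the difference between the 2 genotypes is a description for each of them and carries no test. Bulk RNA-seq was performed on 4 B4galt1 flox/flox livers, labelled WT, and on 3 livers labelled as the hepatocyte knockout of B4galt1, B4galt1 hep-/-, with 1 library per mouse. B4galt1 encodes a Golgi galactosyltransferase, and hepatocyte deletion relied on Alb-Cre, a Cre recombinase driven by the albumin promoter, crossed to floxed B4galt1. Controls were flox/flox littermates without a stated Cre. All 7 mice were males on a C57BL/6 background that began CDAHFD, a high-fat diet of defined amino acids that lacks choline, at 6 to 8 weeks of age and received it for 15 weeks, a model of steatohepatitis, so both groups carry the diet. They were kept under 12 hours of light and 12 hours of dark with free access to food, and the hour of killing is not given in the sources used here.

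Total counts ran from 37838654 to 39668509 in the flox/flox libraries and from 30608271 to 34586588 in the hep-/- libraries. The mitochondrially encoded share was 3.88% to 7.996% in flox/flox and 14.4% to 22.6% in hep-/- livers. B4galt1, the deleted gene, stood at 48.7, 53.0, 49.2 and 51.6 counts scaled to library size (CPM, with TMM factors) in flox/flox mice and at 28.4, 23.9 and 53.7 CPM in hep-/- mice, so the library labelled hep-/- replicate 3 was at the control level. Its log2 fold change was -0.52 (SE 0.26, adjusted p = 0.181, edgeR quasi-likelihood test with Benjamini-Hochberg adjustment) with all mice and -0.96 without that library. Log2 fold changes of the genes described are therefore also given without it. Hepatocyte markers were abundant in all livers (summed level of 8 genes, 77687 to 117136 CPM in flox/flox and 95144 to 150204 CPM in hep-/-), and 0 of the 8 were called by edgeR (3 at an unadjusted p below 0.05, and 3 by DESeq2).

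The circadian clock is a feedback loop in which BMAL1 and CLOCK activate genes through E-boxes, among them the Per and Cry genes whose products repress BMAL1 and CLOCK. The same E-boxes drive Dbp and the REV-ERB gene Nr1d1. DBP, TEF and HLF, the proline and acidic amino acid-rich (PAR) bZIP factors, activate genes through D-boxes, which the repressor NFIL3 also binds, and REV-ERB and ROR proteins compete at ROR elements, repressing and activating. In liver these output factors pass daily time to genes of drug, bile acid and lipid metabolism.

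The promoters that held a clock motif, and that of Dbp, are shown so that the motifs, or their absence from the Dbp window, can be read beside the values. RefSeq windows matched 8 of the 9 genes, with 9 start sites, and the 250 bases before each start were searched on both strands for the E-box CACGTG, the D-box TTANGTAA and the ROR element TNGGTCA. The coordinates are of GRCm38.p6, a build other than the GRCm39 named for the counts. Capitals mark E-boxes and ROR elements, and each sequence runs in the direction of transcription:
Ciart, chr3:95882229-95882478, minus strand: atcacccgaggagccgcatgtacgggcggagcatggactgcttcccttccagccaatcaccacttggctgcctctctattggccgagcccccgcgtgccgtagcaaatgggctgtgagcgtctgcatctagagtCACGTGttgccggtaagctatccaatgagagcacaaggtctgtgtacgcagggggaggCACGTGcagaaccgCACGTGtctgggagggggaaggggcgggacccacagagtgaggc
Tef, upstream start, chr15:81802423-81802672, plus strand: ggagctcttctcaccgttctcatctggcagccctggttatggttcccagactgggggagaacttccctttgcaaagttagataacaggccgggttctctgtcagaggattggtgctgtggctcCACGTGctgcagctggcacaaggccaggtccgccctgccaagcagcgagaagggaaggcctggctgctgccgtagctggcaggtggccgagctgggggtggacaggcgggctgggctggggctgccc
Tef, downstream start, chr15:81811164-81811413, plus strand: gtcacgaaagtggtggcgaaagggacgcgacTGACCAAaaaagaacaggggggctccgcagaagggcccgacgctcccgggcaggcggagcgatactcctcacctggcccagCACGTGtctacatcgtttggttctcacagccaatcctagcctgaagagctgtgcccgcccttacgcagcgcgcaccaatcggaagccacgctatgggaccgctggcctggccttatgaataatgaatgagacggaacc
Bhlhe41, chr6:145865421-145865670, minus strand: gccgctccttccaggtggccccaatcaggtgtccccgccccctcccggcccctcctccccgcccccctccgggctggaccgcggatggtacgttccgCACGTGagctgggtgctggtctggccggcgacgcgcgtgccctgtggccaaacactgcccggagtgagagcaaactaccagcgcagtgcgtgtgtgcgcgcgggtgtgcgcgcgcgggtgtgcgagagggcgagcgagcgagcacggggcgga
Nfil3, chr13:52981040-52981289, minus strand: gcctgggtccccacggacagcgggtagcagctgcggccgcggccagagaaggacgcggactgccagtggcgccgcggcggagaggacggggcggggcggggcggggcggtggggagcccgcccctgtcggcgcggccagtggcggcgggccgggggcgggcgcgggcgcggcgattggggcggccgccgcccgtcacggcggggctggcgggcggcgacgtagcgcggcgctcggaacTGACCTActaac
Dbp, chr7:45704997-45705246, plus strand: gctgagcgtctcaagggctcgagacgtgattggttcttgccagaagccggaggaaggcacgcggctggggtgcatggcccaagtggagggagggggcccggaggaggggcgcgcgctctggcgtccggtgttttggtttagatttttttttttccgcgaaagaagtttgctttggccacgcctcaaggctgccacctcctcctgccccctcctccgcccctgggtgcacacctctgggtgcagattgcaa
The E-box was present in 3 of the 8 genes, against 6.02% of 32851 promoter windows of the same length. Ciart held 3 copies at 116, 58 and 44 bases before its start, Tef held 1 at each of its start sites and Bhlhe41 held 1 at 153 bases. The ROR element, found in 9.19% of all windows, occurred in Nfil3 at 12 bases before the start and in Tef at the downstream start site. The D-box, found in 2.06% of all windows, occurred in none of the 8 genes. The windows of Dbp, Hlf, Rora and Usp2 held none of the 3 motifs, and those of Hlf, Rora and Usp2 are not printed. Bhlhe40 had no RefSeq window. These are letter matches in a short window, and no binding was measured.

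Dbp, the PAR bZIP activator and among the most steeply cycling mRNAs of liver, was lower in hep-/- than in flox/flox livers. It stood at 162.94, 129.85, 67.80 and 178.68 CPM in the 4 flox/flox mice and at 43.86, 56.67 and 16.02 CPM in the 3 hep-/- mice. The groups did not overlap, flox/flox replicate 3 was the lowest control, and hep-/- replicate 3 lay furthest below the controls. In bulk RNA, fewer cells of a type and less RNA per cell cannot be told apart. The means were 135 ± 49.1 CPM (SD, n = 4) and 38.9 ± 20.8 CPM (SD, n = 3), a log2 fold change of -1.79 (SE 0.42) or 3.47-fold lower. Without hep-/- replicate 3 the log2 fold change was -1.43. Over all 16 alternative settings, which are refits of these libraries, it ran from -2.17 to -1.43 and stayed past the calling threshold. In the GENCODE M21 annotation Dbp overlaps Sphk2 on the opposite strand, and whether counting used strand is not given in the sources used here. Sphk2, a sphingosine kinase gene, was measured at 23.3 to 38.3 CPM in flox/flox and 22.8 to 41.5 CPM in hep-/- livers.

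The other PAR bZIP genes lay closer to their controls. Tef stood at 199.20, 142.25, 133.91 and 173.76 CPM in flox/flox mice and at 137.88, 196.41 and 112.76 CPM in hep-/- mice. Its groups overlapped, with a log2 fold change of -0.12 (SE 0.24) that was 0.033 without hep-/- replicate 3. Hlf stood at 37.87, 42.56, 50.67 and 46.59 CPM in flox/flox mice and at 36.04, 29.44 and 39.34 CPM in hep-/- mice. The hep-/- mice occupied the low end of its range with an overlap of 1 mouse pair, and its log2 fold change was -0.35 (SE 0.18), or -0.45 without replicate 3.

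Nfil3, the bZIP repressor that binds the D-box, had its highest value in a hep-/- mouse. It stood at 4.60, 13.48, 10.10 and 12.91 CPM in flox/flox mice and at 15.71, 13.54 and 44.77 CPM in hep-/- mice. The groups touched without overlapping, since the highest control and the lowest hep-/- mouse differed by less than 0.1 CPM, and the distance between the means came largely from hep-/- replicate 3. Nfil3 averaged 10.3 ± 4.06 CPM (SD, n = 4) and 24.7 ± 17.4 CPM (SD, n = 3), a log2 fold change of 1.26 (SE 0.43) that did not reach the calling threshold and that was 0.50 without hep-/- replicate 3. It was past the threshold in 4 of 16 alternative settings, among them DESeq2.

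Ciart, Bhlhe40 and Bhlhe41 encode repressors of the BMAL1 and CLOCK arm. Ciart stood at 20.97, 13.05, 12.88 and 17.49 CPM in flox/flox mice and at 12.92, 20.03 and 19.51 CPM in hep-/- mice, and its groups overlapped over most of their range. Its log2 fold change of 0.12 (SE 0.24) was 0.024 without hep-/- replicate 3 and -0.0014 on the FPKM scale. Bhlhe40, a basic helix-loop-helix repressor that competes at E-boxes, split the hep-/- mice. It stood at 62.89, 85.25, 88.30 and 75.30 CPM in flox/flox mice and at 55.65, 40.99 and 136.17 CPM in hep-/- mice. Replicates 1 and 2 lay below every control and replicate 3 above every control, so that the log2 fold change was -0.01 (SE 0.34) with all mice and -0.70 without replicate 3. Bhlhe41, its close relative, stood at 16.83, 12.65, 15.70 and 13.65 CPM in flox/flox mice and at 10.45, 9.80 and 8.82 CPM in hep-/- mice. All 3 hep-/- mice lay below all controls, with means of 14.7 ± 1.90 CPM (SD, n = 4) and 9.69 ± 0.825 CPM (SD, n = 3) and a log2 fold change of -0.60 (SE 0.20), or -0.55 without replicate 3. Bhlhe41 was past the calling threshold in 1 of 16 alternative settings, DESeq2.

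Rora encodes the ROR activator that opposes REV-ERB, and Usp2 a deubiquitinase whose mRNA cycles with the clock. Rora stood at 35.94, 59.40, 57.49 and 52.13 CPM in flox/flox mice and at 41.91, 35.62 and 52.83 CPM in hep-/- mice. Its groups overlapped, flox/flox replicate 1 being as low as the lowest hep-/- mouse, with a log2 fold change of -0.24 (SE 0.22) that was -0.41 without hep-/- replicate 3 and -0.11 without hep-/- replicate 2. Usp2 stood at 48.43, 52.18, 62.32 and 48.57 CPM in flox/flox mice and at 41.72, 40.20 and 48.38 CPM in hep-/- mice. The groups did not overlap, though the highest hep-/- mouse and the lowest control differed by less than 0.1 CPM, and the log2 fold change was -0.28 (SE 0.18), or -0.38 without hep-/- replicate 3.

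**Figure D1:**
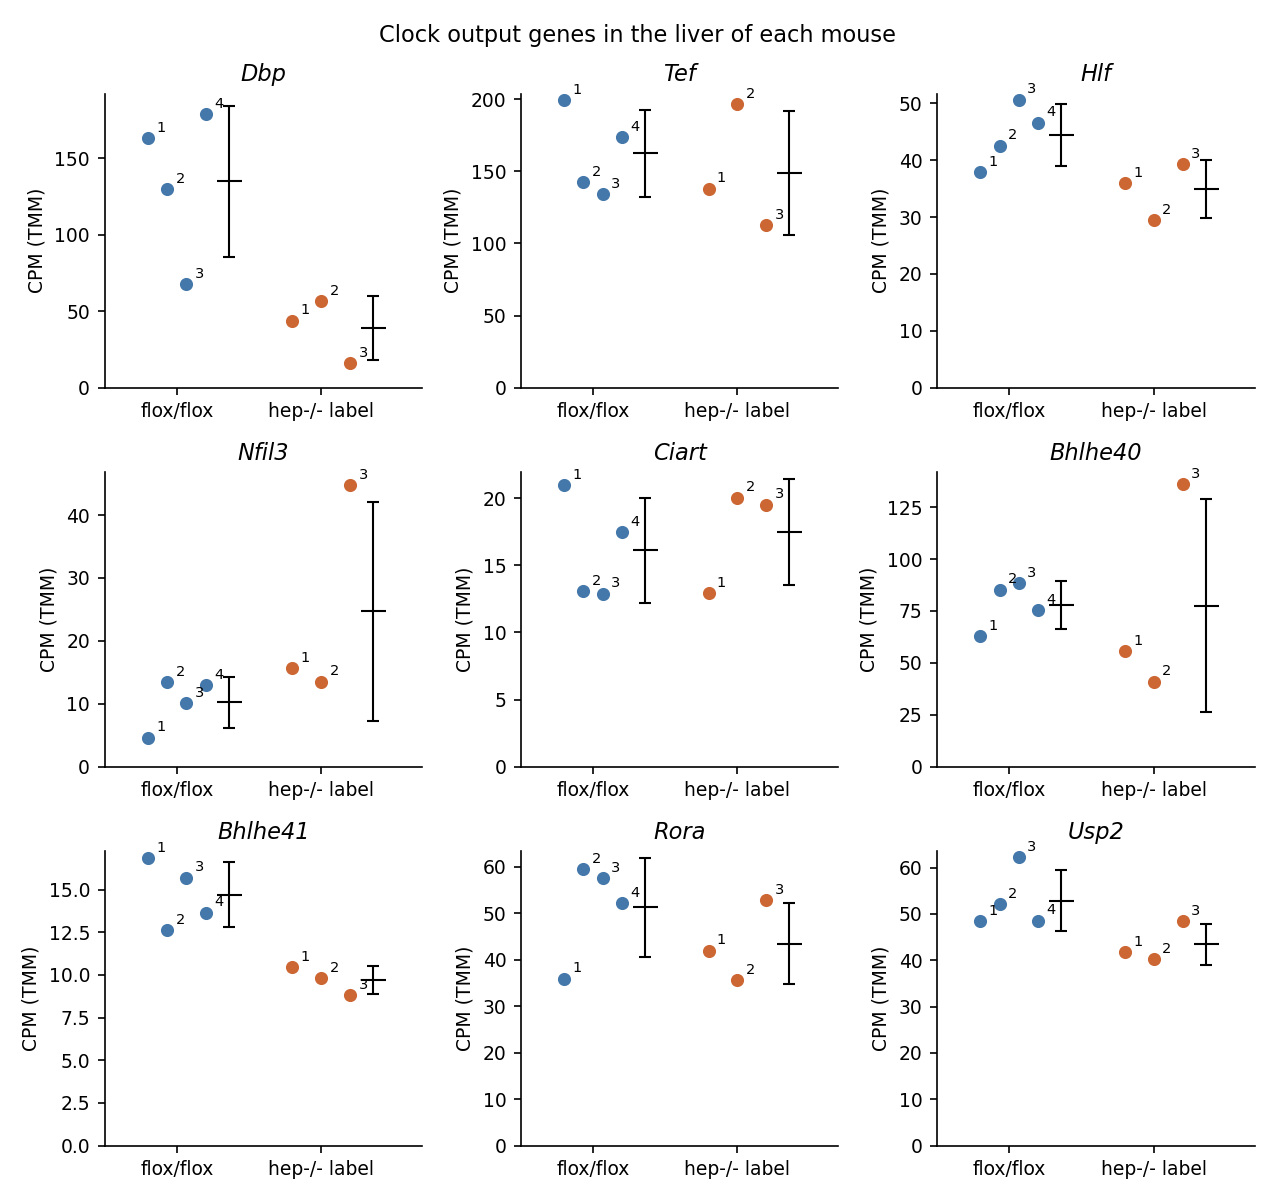
Level of each of the 9 genes in every mouse, in CPM on linear axes that start at 0, for 4 B4galt1 flox/flox and 3 B4galt1 hep-/- livers, with numbered points for mice and a dash with error bars for the group mean and SD. The 3 hep-/- points of Dbp lie below all 4 control points, whereas hep-/- replicate 3 stands above the others for Nfil3 (44.77 CPM) and Bhlhe40 (136.17 CPM).

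All 9 genes passed the filter on low counts, with 200 to 8663 counts per library. A gene was called where the adjusted p was below 0.05 and the log2 fold change exceeded 0.58 in size. By this rule 1 of the 9, Dbp, was called, and it was lower, where 15.8% of the 15179 tested genes were called and 7.83% were called lower. The log2 fold change was negative for 7 genes and positive for 2, and its median was -0.24, against 0.02 over all tested genes. The groups did not overlap for 4 genes, Dbp, Bhlhe41 and Usp2 below and Nfil3 above, where 28.6% of the tested genes did not overlap. Since the genes were chosen with these values known, nothing is read from these shares. The lowest mouse was hep-/- replicate 2 for 4 genes and hep-/- replicate 3 for 3 genes, and hep-/- replicate 3 was the highest for 2.

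**Figure D2:**
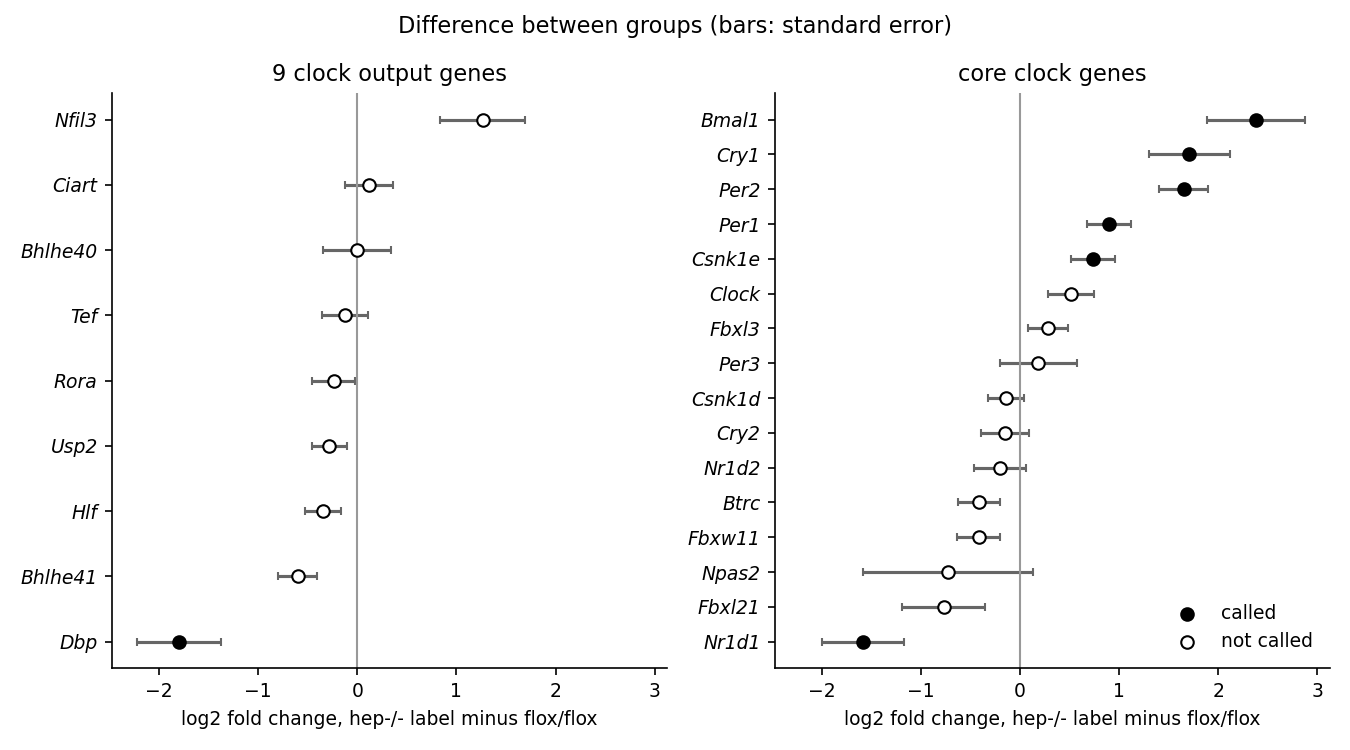
Log2 fold change of hep-/- over flox/flox livers with its standard error for the 9 genes and for core clock genes, from edgeR's quasi-likelihood fit, with filled points for called genes. Dbp (-1.79) lies furthest below 0 and Bmal1 (2.38) furthest above it.

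The 9 genes also differed in how far mice of 1 group spread. The pooled within-group SD of log2 CPM was 0.78 for Dbp, which is larger than for 88.9% of tested genes. Nfil3 spread about as widely (90.0%), and Bhlhe40 less so (79.3%). These SDs include hep-/- replicate 3, the highest mouse for Nfil3 and Bhlhe40 and the lowest for Dbp, and are not given without it. Usp2 (7.54%), Bhlhe41 (8.25%) and Hlf (13.9%) were among the steadier genes. The median SD over all tested genes was 0.35.

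Levels between genes were compared per length, in FPKM (fragments scaled to gene length and library total). In flox/flox livers Dbp was the most abundant at 50.9 ± 18.2 FPKM (SD, n = 4), followed by Bhlhe40 at 26.0 ± 3.81 FPKM and Tef at 24.2 ± 5.69 FPKM. Bhlhe40 and Tef did not differ beyond their spread. Usp2 (9.21 ± 1.52 FPKM), Hlf (7.69 ± 0.960 FPKM) and Ciart (7.59 ± 2.23 FPKM) formed a middle tier within their spread of each other. Bhlhe41 (2.52 ± 0.527 FPKM) and Nfil3 (2.34 ± 0.812 FPKM) followed, again within their spread, and Rora was the lowest at 1.02 ± 0.189 FPKM. In hep-/- livers Bhlhe40 (23.0 ± 13.5 FPKM, SD, n = 3) and Tef (20.8 ± 8.53 FPKM) were the most abundant, and Dbp followed at 14.0 ± 8.66 FPKM, the 3 lying within their spread of each other. Ciart (7.59 ± 2.26 FPKM), Usp2 (6.90 ± 0.521 FPKM), Hlf (5.51 ± 0.233 FPKM) and Nfil3 (5.10 ± 3.22 FPKM) came next, and Bhlhe41 (1.51 ± 0.236 FPKM) and Rora (0.791 ± 0.0917 FPKM) were the lowest. Without hep-/- replicate 3 the hep-/- means of the leading genes were 24.1 FPKM for Tef, 18.5 FPKM for Dbp and 15.2 FPKM for Bhlhe40, and that of Nfil3 was 3.23 FPKM.

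The make-up of the D-box factors followed from these levels. The summed FPKM of Dbp, Tef and Hlf was 107.9, 75.3, 56.6 and 91.7 in flox/flox mice and 37.8, 58.2 and 25.1 in hep-/- mice, so that 1 hep-/- mouse overlapped the lowest control. Dbp supplied 63.1%, 63.4%, 47.3% and 66.7% of that sum in flox/flox mice and 38.4%, 38.6% and 20.5% in hep-/- mice. Tef supplied 29.8% ± 4.91 (SD, n = 4) and 52.0% ± 4.65 (SD, n = 3) of it, and was thus the leading PAR bZIP transcript in the hep-/- livers. The ratio of the sum to Nfil3, activators to repressor in FPKM, was 91.6, 24.8, 23.2 and 33.9 in flox/flox mice and 11.9, 17.7 and 2.85 in hep-/- mice. All 3 hep-/- values lay below all controls, with flox/flox replicate 1 (low Nfil3) and hep-/- replicate 3 (high Nfil3, low Dbp) at the ends. Without that mouse the hep-/- means were 48.0 FPKM for the sum, 38.5% for the Dbp share, 49.8% for the Tef share and 14.8 for the ratio to Nfil3. These ratios use the same contrast as the choice of genes and carry no test.

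**Figure D3:**
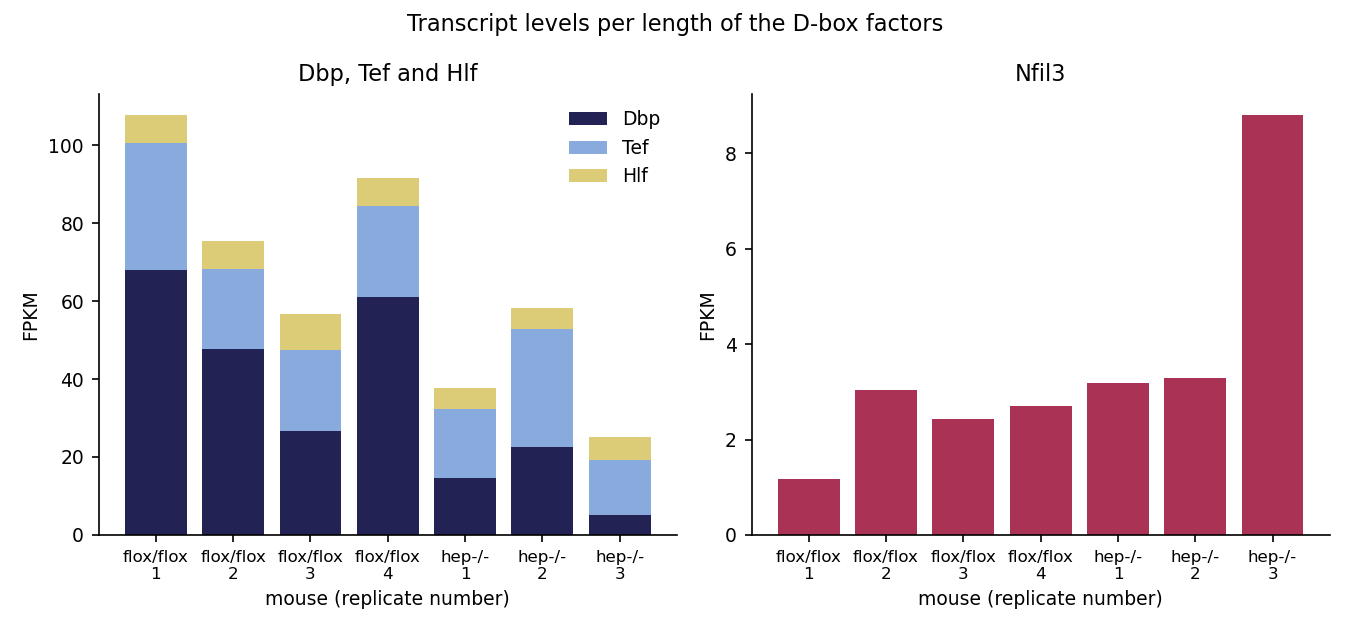
D-box factors in each mouse in FPKM, with the PAR bZIP activators Dbp, Tef and Hlf as stacked bars and the repressor Nfil3 in a panel beside them. Dbp is the largest share in all 4 flox/flox mice (47.3% to 66.7%) and Tef in all 3 hep-/- mice.

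Deviations from the group mean, in log2 CPM over the 7 mice, show which genes varied together within genotype, as a description over few mice of the same libraries. Of the 36 pairs of the 9 genes, 16 had a correlation over 0. Dbp and Tef varied together (Pearson r = 0.85), as did Nfil3 with Rora (r = 0.92) and with Bhlhe40 (r = 0.85). Dbp ran opposite to Usp2 (r = -0.95) and Bhlhe40 (r = -0.87), and Tef opposite to Rora (r = -0.89). Hlf, the other PAR bZIP gene, ran opposite to Tef (r = -0.87) and Dbp (r = -0.76). Among 10771 genes with a mean of at least 1 FPKM, Marveld2, a tight junction gene (r = 0.99), Nfkb2, an NF-kappa-B subunit gene (r = 0.99), 2210016L21Rik (r = 0.98), Htra2, a mitochondrial protease gene (r = 0.98), and Gm40739 (r = 0.98) were most like Dbp. Of the clock genes, Nr1d1 (r = 0.94, position 59) and Per3 (r = 0.93, position 63) came nearest, whereas Cry1 (r = -0.98) and Clock (r = -0.97) ran opposite. Without hep-/- replicate 3, over 6 mice, each of these correlations kept its sign. Those of Dbp with Bhlhe40 (r = -0.68) and Tef (r = 0.76) and of Nfil3 with Bhlhe40 (r = 0.69) were weaker, and that of Dbp with Usp2 was -0.99.

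The core clock genes upstream of the 9 genes were measured in the same fit, and 17 of 18 listed passed the filter. This list, like the target and rhythmic lists below, was chosen with earlier results of these data known. Adjusted p-values of their genes come from the fit of all genes and are no independent test of the lists. Of the 17, 6 were higher and 1 was lower in hep-/- livers, against the background of 15.8%, and the median log2 fold change was 0.18. The sign of this median turned without hep-/- replicate 2 (-0.19) and without flox/flox replicate 3 (-0.046). Bmal1, which encodes the activator of the E-box arm, stood at 2.78, 1.58, 1.76 and 1.30 CPM in flox/flox mice and at 3.47, 6.79 and 18.75 CPM in hep-/- mice. Its log2 fold change was 2.38 (SE 0.49, adjusted p = 0.0112, edgeR quasi-likelihood test) and 1.45 without hep-/- replicate 3, which held the highest value. Per2, a repressor of the loop, stood at 51.88, 28.61, 37.51 and 39.98 CPM in flox/flox mice and at 89.83, 153.70 and 128.18 CPM in hep-/- mice, with no overlap and a log2 fold change of 1.65 (SE 0.24, adjusted p = 0.00362, edgeR), or 1.61 without hep-/- replicate 3. Cry1, another repressor, rose from 7.67 ± 3.70 CPM to 25.1 ± 16.1 CPM, a log2 fold change of 1.71 (SE 0.41, adjusted p = 0.0198, edgeR), and was not called without hep-/- replicate 3 (1.03), flox/flox replicate 2 (1.68) or flox/flox replicate 4 (1.58). Nr1d1, the REV-ERB-alpha gene, was the 1 gene called lower. It stood at 97.79, 57.65, 28.02 and 67.10 CPM in flox/flox mice and at 21.36, 30.46 and 10.95 CPM in hep-/- mice, a log2 fold change of -1.58 (SE 0.41, adjusted p = 0.0261, edgeR) with flox/flox replicate 3 inside the hep-/- range. The call on Nr1d1 was lost in 4 of the 7 omissions of a mouse, without flox/flox replicate 2 (-1.62), flox/flox replicate 4 (-1.55), hep-/- replicate 1 (-1.61) or hep-/- replicate 3 (-1.28). Bmal1, Per2 and Cry1 were named by a rule that takes called genes without group overlap, so they too were picked by outcome. Nr1d1, Per1 (0.90, adjusted p = 0.0217, edgeR) and the casein kinase gene Csnk1e (0.74, adjusted p = 0.0453, edgeR) were added after their values were seen. Without hep-/- replicate 3, Per1 was 0.84 and called and Csnk1e 0.73 and not called. The count of 7 called genes was 4, all higher, without hep-/- replicate 3, and 3 without flox/flox replicate 2 or without flox/flox replicate 4.

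The Bmal1 promoter window held 2 letter matches to the ROR element TNGGTCA, in capitals, at 200 and 181 bases before the upstream of its listed starts and at 246 and 227 bases before the downstream one. Of 13 core clock genes with a window, 3 held the ROR element, 2 the E-box and 2 the D-box. The ROR element was found in 9.19% of all windows. Of these windows only that of the upstream Bmal1 start is printed:
Bmal1, chr7:113207215-113207464, plus strand: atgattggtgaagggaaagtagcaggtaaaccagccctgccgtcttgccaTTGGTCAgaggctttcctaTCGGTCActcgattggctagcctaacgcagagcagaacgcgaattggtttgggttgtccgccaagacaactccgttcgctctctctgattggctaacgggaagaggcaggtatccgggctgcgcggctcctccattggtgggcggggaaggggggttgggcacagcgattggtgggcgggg

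**Figure D4:**
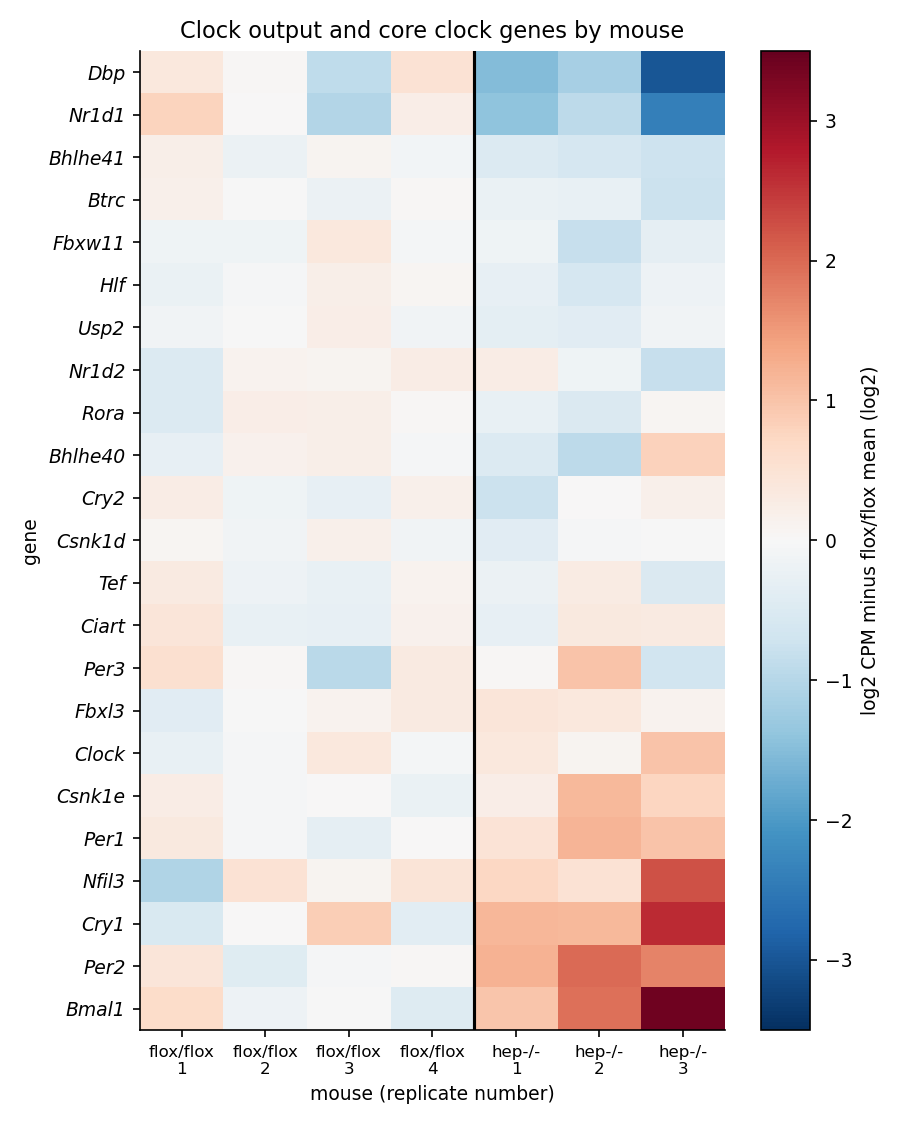
Log2 CPM of output and core clock genes in each mouse relative to the mean of the flox/flox mice, for 23 genes with at least 1 CPM in every mouse. In hep-/- replicate 3, Bmal1 (3.40), Cry1 (2.62) and Nfil3 (2.24) are far above, and Dbp (-2.98) and Nr1d1 (-2.38) far below, the flox/flox mean.

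Liver genes placed downstream of DBP, TEF and HLF by textbook knowledge were compared next. Of 19 listed genes 18 were tested, of which 3 were called higher and 0 lower by edgeR, where 15.8% of all tested genes were called. At an unadjusted p below 0.05 in that test, 4 were higher and 6 lower. The log2 fold change was negative for 12 of the 18, and the median was -0.28. The 3 called genes were cytochrome P450 genes of the Cyp2a and Cyp2b families, which are known to be female-biased in mouse liver, whereas these mice were male. Cyp2b13 went from 0.585 ± 0.385 CPM to 15.4 ± 4.15 CPM (log2 fold change 4.70, SE 0.46, adjusted p = 0.000654, edgeR), or 4.88 without hep-/- replicate 3. Its control values were low (0.18 to 1.10 CPM), so the size of this fold change is uncertain, and it was 2.59 on log2(FPKM + 1). With at least 10 counts in every mouse Cyp2b13 was not tested. Cyp2a4 went from 23.7 ± 11.6 CPM to 191 ± 79.6 CPM (log2 fold change 3.01, SE 0.38, adjusted p = 0.00236, edgeR), or 3.23 without hep-/- replicate 3. Cyp2b9 went from 68.2 ± 27.0 CPM to 137 ± 11.3 CPM (log2 fold change 1.003, SE 0.29, adjusted p = 0.0366, edgeR), and lost its call without any 1 of 5 of the 7 mice, hep-/- replicate 3 among them (0.96). These families hold near-identical copies, between which the authors' counting could divide reads, so single members are uncertain. Targets on the bile acid and heme side did not pass with all 7 mice. Cyp7a1, the rate-limiting enzyme of bile acid synthesis, differed by -1.53 on the log2 scale (adjusted p = 0.0914, edgeR). Alas1, the rate-limiting enzyme of heme synthesis, had -0.88 (adjusted p = 0.0585, edgeR). Cyp3a11 had -0.89 (adjusted p = 0.0510, edgeR), and Por, the P450 reductase gene, -0.34 (adjusted p = 0.346, edgeR). Without hep-/- replicate 3, Cyp7a1 (-2.52) and Alas1 (-1.26) were called lower, and Cyp3a11 (-0.89) and Por (-0.59) were not called. Lower calls among these targets depended on the setting. With DESeq2 there were 3 higher and 4 lower, with at least 1 count in any mouse 3 higher and 5 lower, and on both FPKM scales 3 higher and 6 lower. Without flox/flox replicate 1 there were 3 higher and 3 lower, and without hep-/- replicate 3 there were 2 higher and 3 lower. The count was 2 without flox/flox replicate 3, flox/flox replicate 4 or hep-/- replicate 2.

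**Figure D5:**
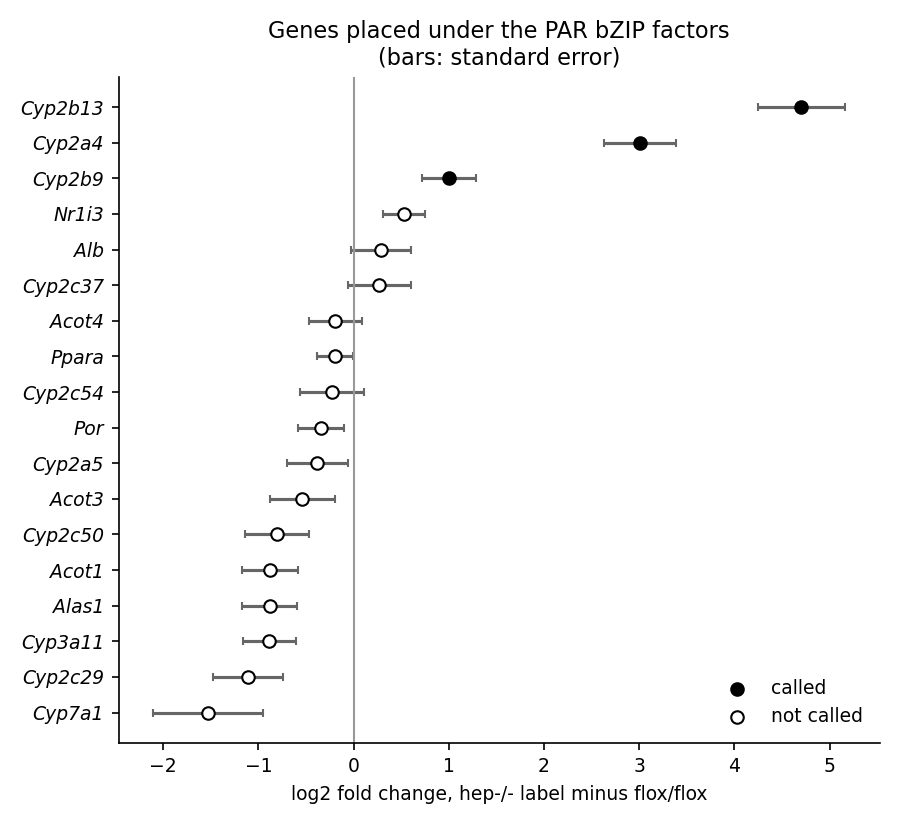
Log2 fold change of hep-/- over flox/flox livers with its standard error for the 18 tested PAR bZIP target genes, from edgeR's quasi-likelihood fit, with filled points for called genes. Cyp2b13 (4.70) and Cyp2a4 (3.01) lie furthest above 0, and most others lie below 0 without a call.

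Of 20 other liver genes with daily rhythms, all tested, 8 were called higher, 2 were called lower and 10 did not pass, where 15.8% of all tested genes were called. By sign, 9 log2 fold changes were positive and 11 negative. Their median of -0.08 turned positive without flox/flox replicate 1 (0.032), flox/flox replicate 3 (0.11) or hep-/- replicate 2 (0.088). Noct, which encodes the rhythmic phosphatase Nocturnin, rose from 59.6 ± 17.3 CPM to 298 ± 150 CPM (log2 fold change 2.32, SE 0.34, adjusted p = 0.00360, edgeR). The cell cycle inhibitor gene Cdkn1a rose from 23.3 ± 7.23 CPM to 107 ± 49.8 CPM (2.20, SE 0.31, adjusted p = 0.00313, edgeR). Slc45a3, a sugar transporter gene, rose by 1.62 on the log2 scale (SE 0.28, adjusted p = 0.00626, edgeR). Tsc22d3, Insig2, Tfrc and Clpx, added after their values were seen, were also called higher. The other genes named from this list were picked by their calls. The 2 lower genes were Gys2, the liver glycogen synthase, at 597 ± 126 CPM and 289 ± 65.0 CPM (log2 fold change -1.04, SE 0.25, adjusted p = 0.0184, edgeR), and Wee1, a mitotic kinase, at 14.8 ± 2.77 CPM and 7.48 ± 0.280 CPM (-0.98, SE 0.21, adjusted p = 0.0131, edgeR). Gys2 was not called without flox/flox replicate 2 (-0.99), the omission that also took the count of called rhythmic genes from 10 to 6. Without hep-/- replicate 3 the log2 fold changes were 1.91 for Noct, 1.74 for Cdkn1a, 1.44 for Slc45a3, -1.17 for Gys2 and -1.02 for Wee1, each still called. In that setting the list held 5 higher and 3 lower calls, Clpx (0.74) was called, and Tsc22d3 (1.25), Insig2 (0.53) and Tfrc (0.57) were not.

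Markers of other liver cells were set beside these values. Of 11 macrophage markers 7 were called lower in hep-/- livers (Adgre1, Marco, Vsig4, Cd68, Trem2, Gpnmb and Lyz2), where 7.83% of all tested genes were called lower. The other 4 were not called, and by sign 10 of the 11 were negative and 1 positive. The summed level over all 11 was 1407 to 3321 CPM in flox/flox and 641 to 769 CPM in hep-/- livers. Of 5 endothelial markers 1, Kdr, was called lower (summed level 64.8 to 259 CPM and 85.2 to 106 CPM). Marker counts here include hep-/- replicate 3 and are not given without it. Of 8 T and NK cell markers (14.2 to 34.4 CPM and 18.1 to 50.8 CPM), 4 B cell (4.99 to 9.30 CPM and 5.53 to 11.7 CPM), 7 stellate cell (267 to 532 CPM and 270 to 568 CPM), 5 cholangiocyte (253 to 656 CPM and 259 to 870 CPM) and 3 neutrophil markers (8.62 to 23.7 CPM and 10.5 to 23.2 CPM), 0 were called by edgeR (1, a B cell marker, at an unadjusted p below 0.05 and by DESeq2). Bhlhe40, Bhlhe41 and Nfil3 are also transcribed in myeloid and lymphoid cells, and the part of the macrophage markers in the values of the 9 genes was not tested. With the 13 mitochondrially encoded genes removed before scaling, the log2 fold change of Dbp was -1.79, as with them. In GENCODE M21, which is not known to be the annotation used for counting, 7 of the 9 genes overlap a gene on the opposite strand. Where the counting annotation holds the same overlap and counting ignored strand, reads of these genes cannot be assigned with certainty. Hlf and Nfil3 overlap none.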

How the data were processed

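Total RNA from livers of 7 mice was extracted with TRIzol and sequenced from VAHTS Universal V6 libraries. Per the submitters' processing notes, the tools were fastp, HISAT2, HTSeq, DESeq2 and R 3.2.0 with GRCm39. Their other versions and the strand setting of counting are not given in the sources used here. The authors deposited raw read counts per gene, and FPKM values per gene, which equal count over length and library total (13374 genes checked, 0 deviating by over 1%). No sample column was left unused (0). Libraries were grouped by the labelled genotype, and no library pair agreed within sampling noise (chi-square per gene at least 60.3 over 21 pairs). Nothing further states that same-numbered mice share a litter or day. Replicate numbers were not taken as pairs, since the correlations of same-numbered deviations were -0.337, -0.034 and 0.078.

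For the test, TMM scaling of the counts was followed by the quasi-likelihood test of edgeR 4.0.16 under R 4.3.3 (genotype as the term, filterByExpr with a minimum count of 10 and total of 15, Benjamini-Hochberg adjustment over 15179 genes). Genes were called where the adjusted p was below 0.05 and the log2 fold change exceeded 0.58 in size. The script was tested on simulated data. Alternatives were DESeq2 1.42.0, other scalings and filters, removal of 13 mitochondrially encoded genes, log2 FPKM with a pseudocount of 1 or 0.1 in limma 3.58.1, a replicate block, and each mouse left out. The members and lists were chosen with earlier results of these data known. Named genes were the 9 members, the called genes of each list with no group overlap (up to 4 per direction by size), the 5 genes most like Dbp, and B4galt1. Individual values of some listed genes are not reported here, and the counts include them. Promoter sequences are RefSeq's (GRCm38.p6), gene overlaps GENCODE M21. Levels and precision rest on 30608271 to 39668509 counts per library, where a count of 0 allows 3 counts.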

Additional observations from a re-analysis of the deposited data

Results flagged for a closer look

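Nfkb2, 1 of the 5 genes most like Dbp within genotype, stood at 17.7 CPM in flox/flox replicate 3, apart from the other 3 controls (gap over range 0.874, above the 95% critical value of Dixon's test for 4 samples). It was 1 of 28 named genes tested in the flox/flox group. Chance marks about 1 in 20 groups, a rate that does not apply here, because Nfkb2 was named for its likeness to Dbp and flox/flox replicate 3 was also the lowest control of Dbp. The hep-/- group of 3 was not put to this test.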

How the results depend on the processing

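Dbp was lower and past the threshold in all 16 alternatives. These are refits of the same libraries for a gene chosen with its values known, so they carry no test of it. Over all genes, 2404 calls became 1267 with the replicate block and 885 to 2396 with 1 mouse left out. The block, in which same-numbered mice share a term, called 2 of the 9 genes, Dbp and Nfil3. It lost Gys2 (-0.93), and the numbers do not pair the mice. Calls among the 9 genes numbered 1, or 3 with DESeq2, 2 with at least 1 count in any mouse, and 1 to 2 with a mouse left out. Core clock calls numbered 7, or 4 on log2(FPKM + 1) and 4 on log2(FPKM + 0.1), and 3 to 7 with a mouse left out. Target calls numbered 3, or 7 with DESeq2, 8 with at least 1 count in any mouse, 9 on log2(FPKM + 1) and 9 on log2(FPKM + 0.1), and 2 to 6 with a mouse left out. Rhythmic gene calls numbered 10, and 6 to 10 with a mouse left out. The cause was not tested. The limma fits on the FPKM scales tested 10914 genes. The median over those genes of the difference in log2 fold change from edgeR was -0.12 and -0.13. In these fits 24.5% and 23.6% of calls were higher, against 50.5%. Scale, test and gene set changed together there. DESeq2 called 3271 genes.

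The sign turned where values lay near 0. Tef was -0.37 to 0.033 with a mouse left out, the upper value without hep-/- replicate 3. Ciart was -0.0014 and -0.0026 on the FPKM scales. Bhlhe40 was 0.0014 with DESeq2 and with RLE scaling, 0.0026 with upper-quartile scaling, 0.032 and 0.058 without flox/flox replicates 2 and 3, 0.17 and 0.30 without hep-/- replicates 1 and 2, and -0.70 without hep-/- replicate 3. Marveld2 was 0.028 with upper-quartile scaling, 0.0042 with at least 10 counts in every mouse, 0.030 with the block, and -0.15 to 0.13 with a mouse left out. The core clock median was 0.18, and -0.19 without hep-/- replicate 2, -0.046 without flox/flox replicate 3 and -0.0059 with at least 1 count in any mouse. Rora and Bmal1 were not tested on the FPKM scales, so the core clock counts there lack Bmal1. Means in FPKM, shares and correlations without hep-/- replicate 3 were added after seeing the data. With 3 hep-/- mice, 1 of them at the control level of B4galt1, the spread within genotype limits all values.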
